A study of Mus musculus with 5 samples.

Results

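The genes described here are the BCL2 family, the caspases and the inhibitor of apoptosis proteins (IAPs), together with 2 gasdermins and the adaptors of death receptor signalling. They were chosen by symbol: every gene whose name begins with Bcl2, with Casp and a digit or with Birc and a digit, plus 15 named relatives such as Mcl1, Bax and Bid. This gave 44 of the 24417 named genes in the table, and 42 of them are described here. Of the 42, 41 stood under their own symbol, and Gsdme was read from the row of its older symbol Dfna5, a synonym in the RefSeq gene table. The cells came from the lamina propria of the mouse colon, the connective tissue beneath the gut epithelium. All mice had the same genotype, with a Foxp3DTR-GFP allele and a Foxp3 reporter-null allele named loxp-Thy1.1-STOP-loxp-GFP. There were 3 libraries of reporter-null cells, marked by the Thy1.1 of the reporter-null allele, and 2 libraries of regulatory T (Treg) cells, marked by the DTR-GFP of the intact allele. The labels give no age and do not say whether each library came from its own mouse, and p-values cover only the variation among these 5 libraries, which could be technical. The description of reporter-null replicate 1 carries a pair of numbers, 1 and 4, where the others carry one.

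Apoptosis through mitochondria is governed by 3 kinds of BCL2 proteins. The pro-survival members (BCL2, BCL-XL, MCL1, A1) hold BAX and BAK in check, BAX and BAK open the outer mitochondrial membrane, and the BH3-only proteins bind the pro-survival members or activate BAX and BAK directly. The opened membrane releases cytochrome c, which leads to activation of caspase-9 and then of the executioner caspases. Death receptors act through FADD and caspase-8, which can cut BID and so join the mitochondrial route, while IAPs restrain caspases or modify the receptor complexes. In Treg cells, survival is known to depend on the balance of MCL1 and BIM, the product of Bcl2l11.

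The total count of a library ran from 17670420 to 22395169, and the 42 genes together took 0.303% to 0.340% of it in the reporter-null libraries and 0.351% and 0.375% in the Treg libraries. Foxp3 followed the labels, with 75.7, 80.7 and 81.3 CPM in reporter-null replicates 1, 2 and 3, against 764 and 770.0 CPM in Treg replicates 1 and 2. Thy1 stood at 269.9, 269.3 and 300.5 CPM in reporter-null replicates 1, 2 and 3, against 18.8 and 21.4 CPM in Treg replicates 1 and 2. CPM is the count scaled to library size with TMM factors. Of 8 T cell markers 7 were in the table, and their summed level was 5503 to 6163 CPM in reporter-null cells and 5827 and 5875 CPM in Treg cells. Markers of other cells set some libraries apart within groups. The 15 markers of colon epithelium summed to 41.2, 1734 and 44.6 CPM in reporter-null replicates 1, 2 and 3, and to 384 and 53.3 CPM in Treg replicates 1 and 2. Of the 53.3 CPM in Treg replicate 2, Epcam alone gave 34.3. Reporter-null replicate 2 and Treg replicate 1 also had the highest sums of their groups for the 12 myeloid markers (23.5, 101 and 25.5 CPM in reporter-null replicates 1, 2 and 3, against 53.4 and 19.1 CPM in Treg replicates 1 and 2). The same held for the 8 B cell and plasma cell markers (660, 1320 and 678 CPM in reporter-null replicates 1, 2 and 3, against 1844 and 746 CPM in Treg replicates 1 and 2). The part of these cells in the results was not tested, and calls of members that changed when either library was left out are given with their values.

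Transcripts of the BH3-only genes Bid and Bcl2l11, of the caspase gene Casp6 and of the IAP gene Birc2 were lower in reporter-null cells than in Treg cells. Transcripts of the BH3-only gene Bik and of the pro-survival gene Bcl2a1d were higher. The largest difference was in Bid, which was 6.74-fold lower. Of the 42 genes, 37 passed the filter on low counts and 6 changed at an adjusted p under 0.05, 2 towards higher and 4 towards lower levels in reporter-null cells. Of all 14164 genes tested, 8.79% were called, 4.07% higher and 4.72% lower, beside 16.2% of the tested members, 5.41% higher and 10.8% lower. At an unadjusted p under 0.05 stood 13 members (35.1%), beside 22.6% of all tested genes. More abundant genes are called more often, and among genes whose average log2 CPM was 3 or more the shares were 11.2% of all genes and 20% of 30 members. The median log2 fold change (reporter-null minus Treg) was -0.18 over the 37 tested members and 0.02 over all tested genes. Every adjusted p is from the quasi-likelihood test of edgeR with Benjamini-Hochberg adjustment over all tested genes, unless another tool is named.

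**Figure D1:**
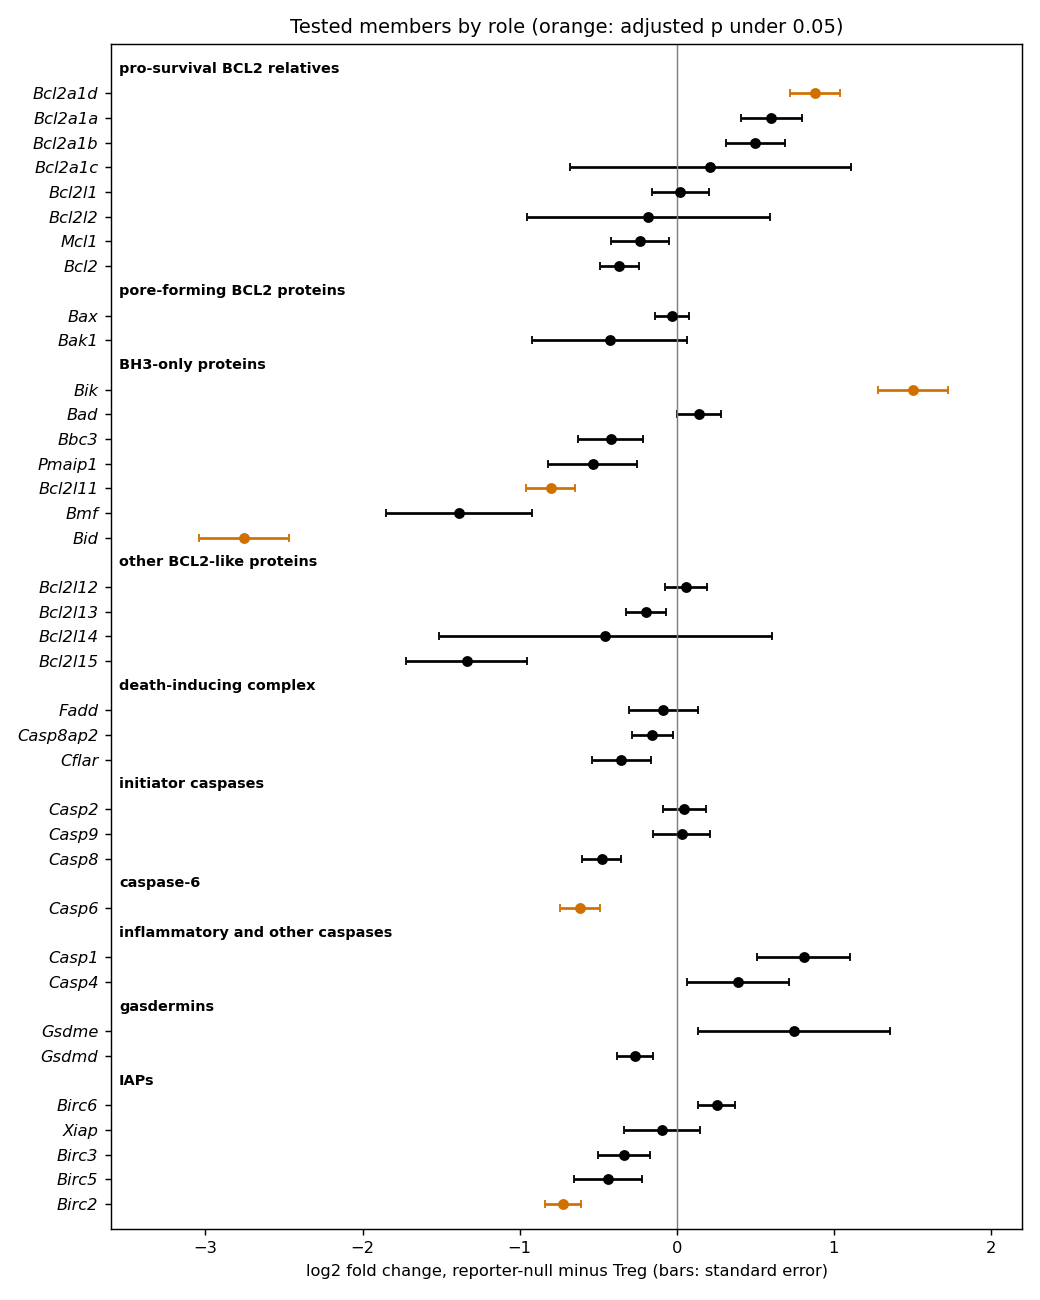
Log2 fold change (reporter-null minus Treg, horizontal axis) of the 37 tested members grouped by role, with the standard error as bars. Orange points mark the 6 members with an adjusted p under 0.05: Bid lies farthest to the left at -2.75 and Bik farthest to the right at 1.50.

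The count of 6 depended on single libraries. Over all genes, the fit without reporter-null replicate 2 called the most, 2035, against 1245 with all 5 libraries. With reporter-null replicate 1, 2 or 3 left out, in this order, 2, 10 and 6 members were called. With Treg replicate 1 left out 2 were called, and with Treg replicate 2 left out 1. Bid was called in each of these 5 fits, and all 6 genes kept their direction in each. Of all genes, 341 to 2035 were called in the same fits.

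BH3-only genes, which encode the sensors that start mitochondrial apoptosis, moved in both directions. Of 7 tested, 1 rose, 2 fell and 4 were not called, beside 4.07% higher and 4.72% lower among all tested genes. Bid encodes the BH3-only protein that caspase-8 and granzyme B cut to link death receptors with mitochondria. Its level was 7.26, 7.49 and 4.27 CPM in reporter-null replicates 1, 2 and 3, against 35.6 and 49.8 CPM in Treg replicates 1 and 2. Every reporter-null library lay far below both Treg libraries. The means were 6.34 ± 1.79 CPM in reporter-null cells and 42.7 ± 10.1 CPM in Treg cells (SD, n = 3 and 2). On the log2 scale the gene differed by -2.75 with an SE of 0.286 (adjusted p = 0.00268). The call held with each of the 5 libraries left out, with log2 fold changes of -2.97 to -2.48. Over 14 alternatives the adjusted p of Bid lay between 1.52e-14 and 0.0666.

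The RefSeq window around the start of Bid, from 250 bases before to 50 bases after it, is shown because Bid had the largest difference. It lies at chr6:120916775-120917074 on the minus strand of GRCm38.p6 and is 63.3% G and C. Capitals mark its 3 matches to the GC box GGGCGG, a sequence common in promoters without a TATA box.
Bid: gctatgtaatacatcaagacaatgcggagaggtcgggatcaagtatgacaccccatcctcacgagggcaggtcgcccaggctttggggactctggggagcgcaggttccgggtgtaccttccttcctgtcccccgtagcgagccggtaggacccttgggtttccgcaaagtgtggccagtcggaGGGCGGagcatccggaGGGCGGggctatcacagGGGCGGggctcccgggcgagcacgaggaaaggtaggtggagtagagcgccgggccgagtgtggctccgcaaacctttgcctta

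Bid overlaps Bcl2l13, another BCL2 relative, on the opposite strand in the GENCODE M21 annotation, and the strand setting of the counting is not given in the sources used here. Of the 50-base windows of the longest Bcl2l13 transcript, 8.44% also occur in Bid transcripts on either strand, while none of the windows of the longest Bid transcript occur in transcripts of another gene. Bcl2l13, a mitochondrial protein linked to mitophagy, was at 68.5, 71.2 and 60.8 CPM in reporter-null replicates 1, 2 and 3, and at 81.3 and 71.8 CPM in Treg replicates 1 and 2. It was not called (log2 fold change -0.20, SE 0.125, adjusted p = 0.429).

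Bcl2l11 encodes BIM, the BH3-only protein that ends the life of activated T cells when survival signals fade. Its level was 41.9, 43.8 and 50.4 CPM in reporter-null replicates 1, 2 and 3, against 68.0 and 90.3 CPM in Treg replicates 1 and 2. No reporter-null library reached either Treg library, and the log2 fold change was -0.80 with an SE of 0.158 (adjusted p = 0.0265). The gene missed the threshold when reporter-null replicate 1 (adjusted p = 0.124), Treg replicate 1 (0.0502) or Treg replicate 2 (0.160) was left out, and its adjusted p over 14 alternatives lay between 0.000354 and 0.160.

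The RefSeq table holds 2 start windows for Bcl2l11, and the first carries a forkhead motif, the kind of site that FOXO factors bind. It is shown because forkhead factors are known regulators of BIM in lymphocytes. It lies at chr2:128125788-128126087 on the plus strand of GRCm38.p6, and capitals mark GTAAACA, which begins 227 bases before the start.
Bcl2l11: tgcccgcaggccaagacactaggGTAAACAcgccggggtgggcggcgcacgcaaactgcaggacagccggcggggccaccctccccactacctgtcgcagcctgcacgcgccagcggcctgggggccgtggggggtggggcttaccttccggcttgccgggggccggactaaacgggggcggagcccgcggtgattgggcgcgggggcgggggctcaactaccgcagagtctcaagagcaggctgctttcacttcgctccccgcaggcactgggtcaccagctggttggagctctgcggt

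Both strands of the RefSeq windows were searched for GTAAACA, for the STAT motif TTCNNNGAA, for the kappaB motif and for GGGCGG, and 38 of the 42 genes had 51 windows. Among the called genes, Bik had no window. GTAAACA was in 3.65% of all 32851 windows and in 4 of the 51 member windows (7.84%). Overlapping windows of Casp4 are among these and count separately, for the kappaB motif as well. It was in 1 of the 7 windows of the called genes. The STAT motif was in 8.30% of all windows and 1 member window (1.96%), and the kappaB motif in 8.46% of all windows and 8 member windows (15.7%). Neither was in a window of a called gene. GGGCGG was in 35.7% of all windows and 30 of the 51 (58.8%), with 6 of the 7 windows of the called genes. These are matches of letters and say nothing of binding.

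Bik, the BH3-only gene that rose, encodes a protein that sits mainly at the endoplasmic reticulum. Its level was 12.1, 12.4 and 12.9 CPM in reporter-null replicates 1, 2 and 3, against 4.61 and 4.16 CPM in Treg replicates 1 and 2. The reporter-null libraries lay close together and above both Treg libraries. The gene was 2.84-fold higher (log2 fold change 1.50, SE 0.223, adjusted p = 0.00926). It missed the threshold when reporter-null replicate 1 (0.0717), Treg replicate 1 (0.0661) or Treg replicate 2 (0.0747) was left out, with 2.50e-08 to 0.140 over 14 alternatives, while the log2 fold change stayed between 1.44 and 1.58 with 1 library left out.

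The other 4 tested BH3-only genes were not called. Pmaip1 encodes NOXA, which binds MCL1, and stood at 276, 277 and 251 CPM in reporter-null replicates 1, 2 and 3, against 258 and 518 CPM in Treg replicates 1 and 2. The high value came from 1 Treg library, and the other lay among the reporter-null libraries. Its log2 fold change was -0.54 with an SE of 0.284 (adjusted p = 0.349). It was -0.95 (adjusted p = 0.0488) without Treg replicate 1 and 0.06 without Treg replicate 2, within adjusted p of 0.0488 to 0.902. Bbc3 encodes PUMA, the BH3-only protein induced by p53. It stood at 50.3, 39.1 and 38.5 CPM in reporter-null replicates 1, 2 and 3, against 45.7 and 68.3 CPM in Treg replicates 1 and 2, so that the groups overlapped. The log2 fold change of Bbc3 was -0.42 (SE 0.207, adjusted p = 0.299).

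Bmf, whose product senses detachment and cytoskeletal stress, was scarce at 1.90 ± 0.683 CPM in reporter-null cells and 4.98 ± 1.20 CPM in Treg cells (SD, n = 3 and 2). Its log2 fold change was -1.38 (SE 0.464, adjusted p = 0.131). It passed when reporter-null replicate 2 was left out (0.0374), the library with the most epithelial transcripts, within 0.0374 to 0.447 over 14 alternatives. The part of epithelial transcripts in that change of call was not tested. Bad, which is held inactive by survival kinases, differed by 0.14 (SE 0.139, adjusted p = 0.633). Hrk, a BH3-only gene best known in neurons, had 1 count in each group and was not tested.

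**Figure D2:**
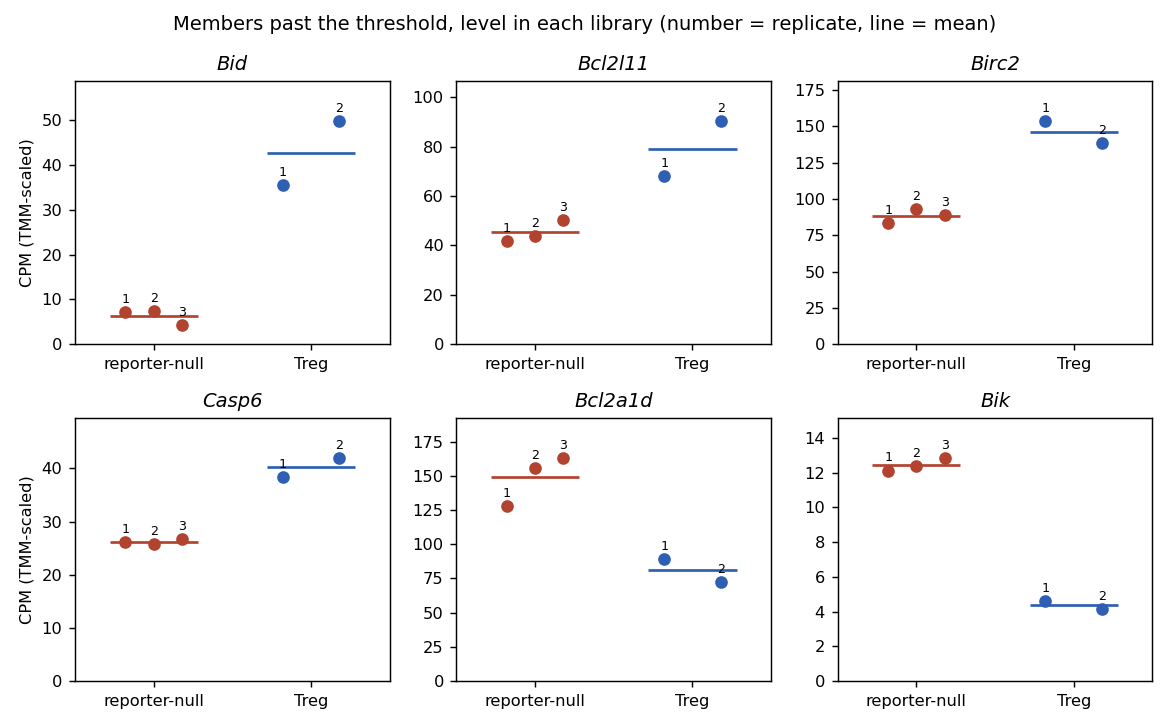
CPM (vertical axis, from 0) of the 6 called members in each of the 3 reporter-null libraries (left, red) and the 2 Treg libraries (right, blue), with replicate numbers beside the points and the group mean as a line. In each panel the groups do not overlap: 4 genes lie lower and 2 genes, Bcl2a1d and Bik, lie higher in reporter-null cells.

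Casp6, which cuts nuclear lamins, was at 26.2, 25.8 and 26.7 CPM in reporter-null replicates 1, 2 and 3, against 38.4 and 42.0 CPM in Treg replicates 1 and 2. Its log2 fold change was -0.62 (SE 0.127, adjusted p = 0.0313), or 1.53-fold lower. The reporter-null libraries lay close together, and every one was below both Treg libraries. With single libraries left out, Casp6 passed only in the fit that left out reporter-null replicate 2, and had adjusted p of 0.155 and 0.0562 when reporter-null replicates 1 and 3 were left out and of 0.133 and 0.174 when Treg replicates 1 and 2 were, within 0.000252 to 0.191 over 14 alternatives.

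**Figure D3:**
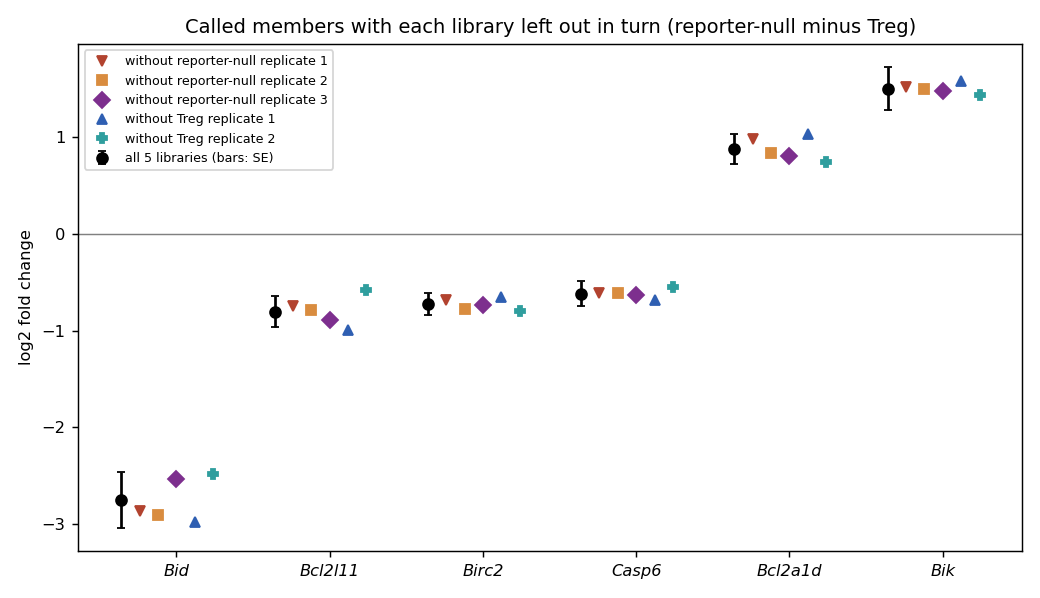
Log2 fold change (vertical axis) of the 6 called members with all 5 libraries (black, with standard error) and with each library left out in turn (coloured symbols). The symbols of each gene stay on one side of 0: those of Bid run from -2.97 to -2.48 and those of Bik from 1.44 to 1.58.

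No initiator caspase was called among 3 tested by edgeR, 1 of them with an unadjusted p under 0.05. That gene was Casp8, the protease that death receptors activate. It stood at 123, 118 and 139.5 CPM in reporter-null replicates 1, 2 and 3, against 166 and 187 CPM in Treg replicates 1 and 2. All reporter-null values were below the Treg values, and the log2 fold change was -0.48 with an SE of 0.124 (adjusted p = 0.0648). It passed with reporter-null replicate 3 left out (0.0392), with upper quartile factors (0.0497) and with DESeq2 (0.00289), within 0.00289 to 0.314 over 14 alternatives. Casp9, the initiator of the mitochondrial route, was at 20.1, 20.9 and 15.9 CPM in reporter-null replicates 1, 2 and 3, and at 18.4 and 18.7 CPM in Treg replicates 1 and 2. Its groups overlapped (log2 fold change 0.03, SE 0.181, adjusted p = 0.946). Casp2, which responds to errors of cell division, differed by 0.05 (SE 0.135, adjusted p = 0.881).

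The partners of caspase-8 gave no call by edgeR or DESeq2 among 3 tested, and none had an unadjusted p under 0.05. Fadd, the adaptor that brings caspase-8 to the receptor, stood at 8.50, 7.78 and 8.14 CPM in reporter-null replicates 1, 2 and 3, and at 8.52 and 8.74 CPM in Treg replicates 1 and 2. The groups were separate by a small step, and the difference in Fadd was -0.08 on the log2 scale (SE 0.219, adjusted p = 0.872). Cflar encodes c-FLIP, the inactive relative that blocks caspase-8. It was at 112, 87.4 and 128 CPM in reporter-null replicates 1, 2 and 3, and at 123 and 156 CPM in Treg replicates 1 and 2, and the groups overlapped (log2 fold change -0.35, SE 0.188, adjusted p = 0.337). Casp8ap2, which despite its name is no caspase and is also known for histone gene transcription, differed by -0.16 (SE 0.131, adjusted p = 0.565).

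Among the pro-survival relatives, 1 of 8 tested rose and 7 were not called, beside 4.07% higher and 4.72% lower among all tested genes. Bcl2a1d, one of the mouse copies of A1, a short-lived protein induced by NF-kappaB, was at 128, 156 and 163 CPM in reporter-null replicates 1, 2 and 3, against 89.5 and 72.7 CPM in Treg replicates 1 and 2. Each reporter-null library was above both Treg libraries, and the log2 fold change was 0.88 with an SE of 0.158 (adjusted p = 0.0188). Leaving out Treg replicate 1 (0.0835) or Treg replicate 2 (0.146) ended the call, and the adjusted p lay between 7.27e-06 and 0.184 over 14 alternatives. Bcl2a1a averaged 33.9 ± 6.06 CPM in reporter-null cells and 22.4 ± 2.39 CPM in Treg cells (SD, n = 3 and 2), and its log2 fold change was 0.60 with an SE of 0.193 (adjusted p = 0.118). Bcl2a1b averaged 170.4 ± 25.7 CPM in reporter-null cells and 121 ± 27.3 CPM in Treg cells, and its log2 fold change was 0.50 with an SE of 0.189 (adjusted p = 0.175). In both genes the groups did not overlap, and Bcl2a1a was called with a replicate block on the description numbers (0.0445).

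The copies Bcl2a1a, Bcl2a1b and Bcl2a1d are nearly identical, and so reads of one can be counted for another. Of the 50-base windows of the longest transcript, 69.0% for Bcl2a1a, 79.2% for Bcl2a1b and 79.5% for Bcl2a1d also occur in transcripts of another gene. Their coding sequences, taken as the longest open reading frame of the GENCODE M21 transcript on chromosome 9, have 519 bases each and differ at 12 positions. The first 60 bases are shown because they hold the most differences of any stretch of that length, and capitals mark the 6 positions that are not the same in all 3 copies.
Bcl2a1a: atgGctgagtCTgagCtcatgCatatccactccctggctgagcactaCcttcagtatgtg
Bcl2a1b: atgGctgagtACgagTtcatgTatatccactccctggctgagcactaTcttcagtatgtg
Bcl2a1d: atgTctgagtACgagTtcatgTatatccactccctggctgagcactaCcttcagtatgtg

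Summed over the 4 Bcl2a1 rows, the level was 303, 364 and 396 CPM in reporter-null replicates 1, 2 and 3, against 254 and 195 CPM in Treg replicates 1 and 2. The sum was higher in every reporter-null library than in either Treg library. Tested as a single row, a choice made after seeing the data, it differed by 0.66 on the log2 scale (SE 0.172) and did not pass (adjusted p = 0.0659). The sum thus moved the same way as Bcl2a1d without passing the threshold. Bcl2a1d made up 42.4%, 42.9% and 41.2% of it in reporter-null replicates 1, 2 and 3. In Treg replicates 1 and 2 its share was 35.2% and 37.3%, and these shares depend on how shared reads were assigned.

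Bcl2, the founding pro-survival member, stood at 109, 93.5 and 114 CPM in reporter-null replicates 1, 2 and 3, against 131 and 140.4 CPM in Treg replicates 1 and 2. These groups were separate, the log2 fold change was -0.37 with an SE of 0.126 (adjusted p = 0.140), and DESeq2 called it (0.0458, range 0.0458 to 0.437 over 14 alternatives). Bcl2l1 encodes BCL-XL, and was at 143, 158 and 127 CPM in reporter-null replicates 1, 2 and 3, and at 115 and 166 CPM in Treg replicates 1 and 2. The groups overlapped (log2 fold change 0.02, SE 0.181, adjusted p = 0.963). Mcl1, on which T cells at all stages rely, was at 696, 505 and 700.3 CPM in reporter-null replicates 1, 2 and 3, and at 665 and 825 CPM in Treg replicates 1 and 2. The groups of Mcl1 overlapped as well (-0.23, SE 0.184, adjusted p = 0.536).

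Bcl2l2 and Bcl2a1c were below 1.3 CPM in every library, and Bcl2l10 had 6 counts in all and was not tested. Levels of different genes can be compared only per length, here as CPM per kilobase of merged GENCODE M21 exons. On that scale Mcl1 had 204, 148 and 205 in reporter-null replicates 1, 2 and 3 and 195 and 241 in Treg replicates 1 and 2. The Bcl2a1 rows are not ranked on it, since their levels depend on how shared reads were assigned. Bcl2l1 ranged from 27.8 to 34.4 per kilobase in reporter-null cells and had 25.1 and 36.2 in Treg cells, while Bcl2 ranged from 10.2 to 12.5 in reporter-null cells and had 14.3 and 15.3 in Treg cells. Bcl2 was thus below Bcl2l1 in every library on this scale.

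Ratios of opposing members do not depend on gene length when the same pair is compared between libraries. The ratio of Bcl2l11 to Bcl2 was 0.386, 0.469 and 0.441 in reporter-null replicates 1, 2 and 3, against 0.518 and 0.643 in Treg replicates 1 and 2. The ratio of Bcl2l11 to Mcl1 was 0.0602, 0.0867 and 0.0720 in reporter-null replicates 1, 2 and 3, against 0.102 and 0.110 in Treg replicates 1 and 2. Both ratios were lower in every reporter-null library than in either Treg library, while the ratio of Bax to Bcl2 was higher, at 1.47, 1.69 and 1.39 in reporter-null replicates 1, 2 and 3, against 1.30 and 1.10 in Treg replicates 1 and 2. These ratios are descriptions and were not tested. They partly restate single genes, since Bcl2l11 was itself called lower and the log2 fold change of Bax was only -0.03. The ratio of Bax to Bcl2 thus mostly mirrors Bcl2, which edgeR did not call.

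**Figure D4:**
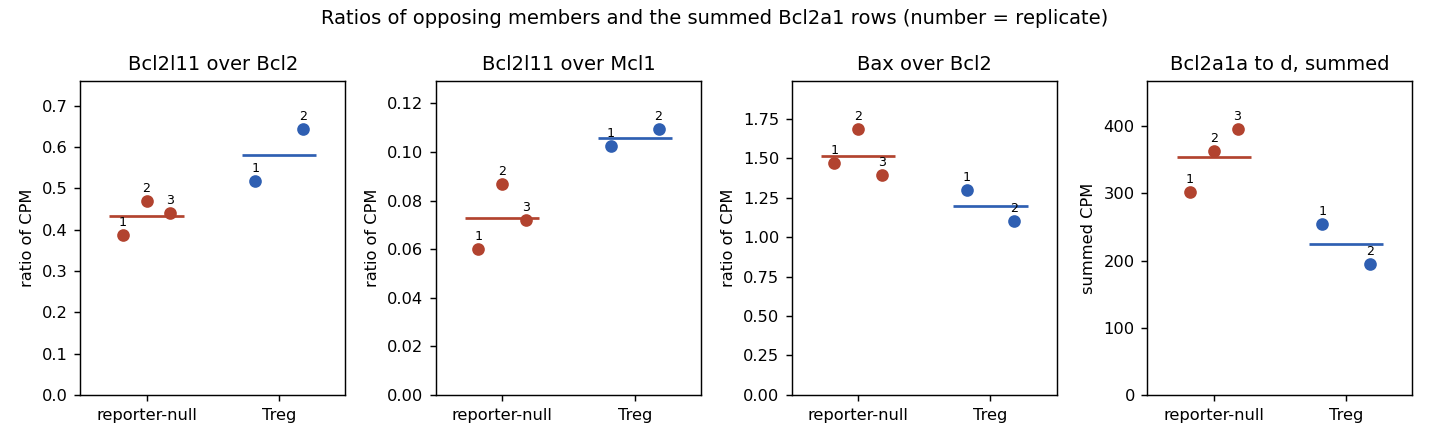
Ratio of CPM (vertical axis, from 0) for 3 pairs of opposing members, and the summed CPM of the Bcl2a1 rows, in each reporter-null library (left, red) and each Treg library (right, blue), with replicate numbers beside the points and group means as lines. The 2 Bcl2l11 ratios lie lower in reporter-null libraries, and the ratio of Bax to Bcl2 and the Bcl2a1 sum lie higher.

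The pore-forming genes were not called by edgeR or DESeq2, and neither had an unadjusted p under 0.05. Bax stood at 159.6, 157 and 159.5 CPM in reporter-null replicates 1, 2 and 3, and at 170.3 and 154 CPM in Treg replicates 1 and 2. Its difference was -0.03 on the log2 scale with an SE of 0.106 (adjusted p = 0.909). Bak1 was scarce, at 1.62, 1.30 and 2.31 CPM in reporter-null replicates 1, 2 and 3, and at 2.06 and 2.64 CPM in Treg replicates 1 and 2. Its groups overlapped, and its log2 fold change was -0.43 with an SE of 0.495 (adjusted p = 0.692).

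Among the IAPs, 1 of 5 tested fell and 4 were not called, beside 4.07% higher and 4.72% lower among all tested genes. Birc2 encodes cIAP1, a ubiquitin ligase of TNF receptor complexes that restrains the non-canonical NF-kappaB pathway. Its level was 83.1, 93.2 and 88.9 CPM in reporter-null replicates 1, 2 and 3, against 154 and 139 CPM in Treg replicates 1 and 2. Birc2 was 1.65-fold lower and its groups were separate (log2 fold change -0.72, SE 0.113, adjusted p = 0.0110). Leaving out reporter-null replicate 1 (0.0794), Treg replicate 1 (0.114) or Treg replicate 2 (0.0624) ended the call, within 1.04e-07 to 0.136 over 14 alternatives.

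Birc3, which encodes the closely related cIAP2, was at 301, 423 and 341 CPM in reporter-null replicates 1, 2 and 3, and at 479 and 416 CPM in Treg replicates 1 and 2. Reporter-null replicate 2 lay between the Treg libraries, and the gene was not called (log2 fold change -0.33, SE 0.167, adjusted p = 0.303). Without that library, which held the most epithelial transcripts, the log2 fold change was -0.49 and it passed (0.0469, range 0.0469 to 0.712 over 14 alternatives). The part of epithelial transcripts in that change of call was not tested. Xiap, whose product binds executioner caspases directly, was at 18.1, 18.3 and 27.0 CPM in reporter-null replicates 1, 2 and 3. It was at 26.2 and 19.1 CPM in Treg replicates 1 and 2, and its groups overlapped (-0.09, SE 0.244, adjusted p = 0.872). Birc6, a very large ubiquitin ligase, differed by 0.25 (SE 0.119, adjusted p = 0.271).

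Birc5 encodes survivin, which is made in dividing cells and works in chromosome segregation. It stood at 12.4, 16.2 and 12.0 CPM in reporter-null replicates 1, 2 and 3, and at 16.0 and 20.7 CPM in Treg replicates 1 and 2, and the groups overlapped (log2 fold change -0.44, SE 0.216, adjusted p = 0.296). Of 15 genes of cycling cells none was called by edgeR, DESeq2 or limma-voom, and none had an unadjusted p under 0.05. Their summed level was 280.1, 286 and 227 CPM in reporter-null replicates 1, 2 and 3, and 231 and 293 CPM in Treg replicates 1 and 2. The ratio of Birc5 to the mean of the division markers Mki67 and Top2a was 0.239, 0.385 and 0.266 in reporter-null replicates 1, 2 and 3, against 0.551 and 0.440 in Treg replicates 1 and 2. It was lower in every reporter-null library, as a description. Both division markers had positive log2 fold changes (0.48 for Mki67 and 0.10 for Top2a), as did 6 of the 15 genes, whose median was -0.07. The ratio thus rests on 2 genes that leaned towards reporter-null cells, and part of its gap comes from them.

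Inflammatory caspases and gasdermins, which drive pyroptosis, gave no call by edgeR among 4 tested, with an unadjusted p under 0.05 for Casp1 alone. Casp1, which matures IL-1beta and IL-18, was at 61.2, 62.2 and 110.6 CPM in reporter-null replicates 1, 2 and 3, against 42.5 and 46.7 CPM in Treg replicates 1 and 2. The groups did not overlap, and reporter-null replicate 3 stood above its group (log2 fold change 0.81, SE 0.294, adjusted p = 0.178). DESeq2 called it (0.0411), and so did edgeR with a replicate block on the description numbers (0.0106), within 0.0106 to 0.550 over 14 alternatives. Casp4, the sensor of intracellular lipopolysaccharide, was high in the same library, at 81.4, 77.9 and 152 CPM in reporter-null replicates 1, 2 and 3, and at 76.1 and 81.9 CPM in Treg replicates 1 and 2. The groups of Casp4 overlapped, and the log2 fold change was 0.39 with an SE of 0.325 (adjusted p = 0.568). It was 0.01 with reporter-null replicate 3 left out. Gsdmd, the pore protein that caspase-1 opens, was at 110.4, 96.2 and 108 CPM in reporter-null replicates 1, 2 and 3, against 122 and 129.8 CPM in Treg replicates 1 and 2. The groups did not overlap (-0.27, SE 0.114, adjusted p = 0.232). Gsdme, a gasdermin that can be opened during apoptosis, was scarce at 2.66 ± 1.36 CPM in reporter-null cells and 1.58 ± 0.315 CPM in Treg cells (SD, n = 3 and 2, adjusted p = 0.555).

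Casp14 and Bcl2l14, both scarce, were highest in the library with the most epithelial transcripts. Casp14, an epidermal caspase, had 0, 42 and 0 counts in reporter-null replicates 1, 2 and 3, and 2 and 0 counts in Treg replicates 1 and 2, and did not pass the filter. Bcl2l14, a BCL2 relative also made in gut epithelium, was at 1.25, 7.49 and 0.623 CPM in reporter-null replicates 1, 2 and 3, and at 5.05 and 3.51 CPM in Treg replicates 1 and 2. Its log2 fold change was -0.46 (SE 1.06, adjusted p = 0.857). Without reporter-null replicate 2 it was -2.21 and passed (0.0180, range 0.0180 to 0.987 over 14 alternatives). The epithelial sum was 384 and 53.3 CPM in Treg replicates 1 and 2, a wider gap than that of Bcl2l14. In reporter-null replicates 1 and 3 the sum was 41.2 and 44.6 CPM, near Treg replicate 2, where Bcl2l14 was higher. Bcl2l15 did not follow the sum. It had 3.63, 2.40 and 5.12 CPM in reporter-null replicates 1, 2 and 3, against 7.87 and 10.9 CPM in Treg replicates 1 and 2. Its groups did not overlap (-1.34, SE 0.385, adjusted p = 0.0882). It passed without reporter-null replicate 2 (0.0448) and with DESeq2 (0.0220), within 0.0220 to 0.372. The part of epithelial transcripts in these values was not tested, and in bulk RNA fewer cells of a type and less RNA per cell cannot be told apart. Bcl2l12, the other BCL2-like gene, differed by 0.06 (SE 0.133, adjusted p = 0.847).

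**Figure D5:**
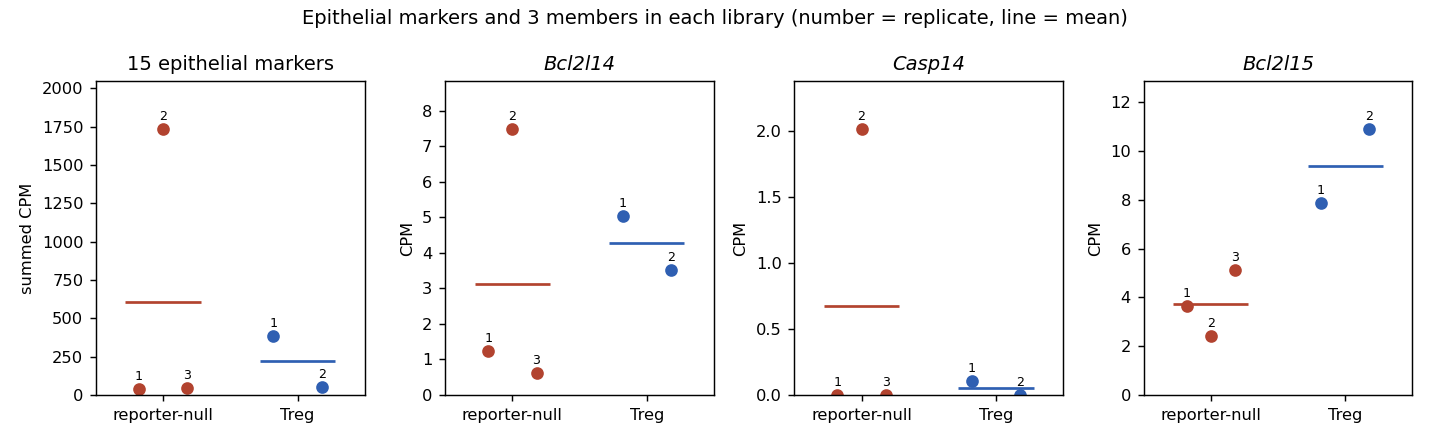
Summed CPM of the 15 epithelial markers, and CPM of Bcl2l14, Casp14 and Bcl2l15 (vertical axes, from 0), in each reporter-null library (left, red) and each Treg library (right, blue), with replicate numbers beside the points and group means as lines. Reporter-null replicate 2 is the highest library of the first 3 panels and the lowest of Bcl2l15.

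Of the 5 members that were not tested, Casp12, an inflammatory caspase, had 5, 8 and 10 counts in reporter-null replicates 1, 2 and 3, and 4 and 1 counts in Treg replicates 1 and 2. Birc7 had no count in any library. Over the 37 tested members, the groups did not overlap in 18 (48.6%), 7 higher and 11 lower in reporter-null cells. The same held for 40.8% of all tested genes, 20.3% higher and 20.5% lower, so that the share of higher members, 18.9%, was near that of all genes and the share of lower members was 29.7%.

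Other genes of cell death were counted list by list. Of all 14164 tested genes, 4.07% were called higher and 4.72% lower, with a median log2 fold change of 0.02. An unadjusted p under 0.05 was reached by 22.6% of them. Among 20 genes of death receptors, their ligands and adaptors, 4 fell and none rose, with a median log2 fold change of -0.18. Fas, the death receptor that removes activated T cells, was at 24.4, 23.9 and 28.6 CPM in reporter-null replicates 1, 2 and 3, against 61.8 and 90.7 CPM in Treg replicates 1 and 2 (log2 fold change -1.57, SE 0.185, adjusted p = 0.00407). Fas stayed called with each library left out, and was not called with a replicate block on the title numbers (0.0861). With reporter-null replicate 2 left out, 6 genes of this list fell and 1 rose. That fit called more genes over the whole table as well, 2035 against 1245 with all 5 libraries. Gains in this and the other lists in that fit stand beside that rise, and whether they are particular to the lists was not tested. Tnfrsf1a, the main TNF receptor, fell as well (-0.98, SE 0.166, adjusted p = 0.0156), as did the TRAIL receptor Tnfrsf10b (-0.80, SE 0.160, adjusted p = 0.0277) and Mlkl, the pore protein of necroptosis (-1.72, SE 0.360, adjusted p = 0.0327). Without reporter-null replicate 1 these 3 were not called (0.0751, 0.127 and 0.150), nor without Treg replicate 1 (0.134, 0.193 and 0.0651) or Treg replicate 2 (0.0973, 0.0865 and 0.240). Tnfrsf10b and Mlkl were also lost without reporter-null replicate 3 (0.0610 and 0.0838). Over 14 alternatives their adjusted p ran from 6.03e-05 to 0.134 for Tnfrsf1a, from 0.000524 to 0.201 for Tnfrsf10b and from 0.000919 to 0.240 for Mlkl.

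Among 20 apoptosome and mitochondrial factors, 1 rose and 1 fell, with a median log2 fold change of -0.03. The gene that fell was Bnip3, which serves mitophagy under low oxygen. It averaged 5.14 ± 0.560 CPM in reporter-null cells and 17.1 ± 3.33 CPM in Treg cells, a difference of -1.73 on the log2 scale (SE 0.234, adjusted p = 0.00656). Bnip3 was not called without Treg replicate 2 (0.0803, range 2.52e-08 to 0.140 over 14 alternatives). The gene that rose was Vdac1, a channel of the outer mitochondrial membrane (0.47, SE 0.106, adjusted p = 0.0415), which lost its call with any of the 5 libraries left out (0.0557 to 0.215, within 0.000214 to 0.215). Among 16 tested p53 genes, 2 fell and none rose, namely Tnfrsf10b, which stands on both lists, and the stress protein gene Sesn1 (-0.99, SE 0.175, adjusted p = 0.0177). Sesn1 was not called without reporter-null replicate 1 (0.0829) or Treg replicate 2 (0.0839), within 1.45e-05 to 0.164.

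With all 5 libraries, none of 13 tested caspase substrates and DNA fragmentation genes was called by edgeR or limma-voom. DESeq2 called 5, and 6 had an unadjusted p under 0.05 by edgeR, beside 22.6% of all tested genes. With reporter-null replicate 2 left out edgeR called 4, namely Cad (0.0251) and Sptan1 (0.0269), which were higher, and Lmna (0.0129) and Panx1 (0.0317), which were lower. It called Cad with reporter-null replicate 3 left out (0.0452) and also with no filter on low counts.

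With all 5 libraries, none of 16 tested inflammasome and pyroptosis genes was called by edgeR or limma-voom. DESeq2 called 1, and 4 had an unadjusted p under 0.05 by edgeR, beside 22.6% of all tested genes. With reporter-null replicate 2 left out edgeR called Nek7 higher (0.0497) and Il18 (0.0143), Ninj1 (0.0152) and Pycard (0.0450) lower. Lmna, Nek7 and Ninj1 are named after their values were seen. Of 19 genes of survival signalling, 2 rose and 3 fell, beside 4.07% and 4.72% of all tested genes. Nfkb1, the p50 subunit of NF-kappaB, averaged 385 ± 14.6 CPM in reporter-null cells and 229.7 ± 4.34 CPM in Treg cells, a difference of 0.74 (SE 0.107, adjusted p = 0.00818). The survival kinase gene Pim2 was higher by 0.64 (SE 0.142, adjusted p = 0.0384). The genes that fell were Il2ra, the high-affinity chain of the IL-2 receptor (-0.88, SE 0.122, adjusted p = 0.00711), Stat5a, which acts downstream of it (-0.55, SE 0.111, adjusted p = 0.0288), and Foxo1, a forkhead factor of resting T cells (-0.53, adjusted p = 0.0470). Foxo1 is named after its values were seen, and it missed the threshold with RLE factors (0.0541), with the non-robust test (0.0565) and with reporter-null replicate 3 left out (0.0740), within 0.000372 to 0.240 over 14 alternatives. With Treg replicate 1 or Treg replicate 2 left out none of the 5 calls held, and with reporter-null replicate 1 left out that of Il2ra alone did (0.0493). In the fits without reporter-null replicate 1, Treg replicate 1 and Treg replicate 2, in this order, the adjusted p was 0.0543, 0.107 and 0.0839 for Nfkb1, 0.149, 0.272 and 0.107 for Pim2 and 0.103, 0.167 and 0.171 for Stat5a. For Il2ra it was 0.0685 without Treg replicate 1 and 0.0784 without Treg replicate 2.

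The remaining marker lists gave few calls. Among 7 tested T cell markers, Cd4 rose (log2 fold change 0.99, adjusted p = 0.00796) and Cd2 fell (-1.37, adjusted p = 0.00186). Cd2 stayed called with each library left out and was not called with a replicate block on the title numbers (0.0886), while Cd4 was lost without Treg replicate 1 (0.110) or Treg replicate 2 (0.0827). None of the 15 epithelial markers was called by edgeR, DESeq2 or limma-voom with all 5 libraries, and none had an unadjusted p under 0.05. With a replicate block on the description numbers edgeR called 10 of them higher, and with reporter-null replicate 2 left out it called Epcam lower (5.16e-07). Epcam stood at 45.0 and 34.3 CPM in Treg replicates 1 and 2, where Krt8 stood at 86.1 and 1.43 CPM. Both were higher in Treg replicate 1, by a small step for Epcam and a large one for Krt8. The part of epithelial content in the call of Epcam was not tested. Of 10 tested myeloid markers none was called by any of the 3 tools, with 1 at an unadjusted p under 0.05, and of 4 stromal and endothelial markers none was called and none had an unadjusted p under 0.05. Cd79b fell among 8 B cell and plasma cell markers (-1.47, adjusted p = 0.0046), and missed the threshold without Treg replicate 1 (0.0588). Prf1, which encodes perforin, fell among 5 tested markers of CD8 and NK cells (-2.26, adjusted p = 0.0183), and kept its call only without reporter-null replicate 2 when single libraries were left out (0.0508 to 0.176 in the other 4 fits). With reporter-null replicate 2 left out, the counts of higher and lower calls were 0 and 2 for apoptosome factors, 1 and 3 for p53 genes, 2 and 4 for survival signalling, 2 and 2 for T cell markers, 0 and 2 for B cell and plasma cell markers and 1 and 1 for CD8 and NK cell markers. With a replicate block on the description numbers the myeloid markers Lyz2 and Csf1r were called higher, both named after their values were seen.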

How the data were processed

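RNA was measured in 3 libraries of Foxp3 reporter-null cells and 2 of Treg cells, grouped by their titles. Per the labels' protocols, polyadenylated RNA was amplified with SMART-Seq v4 and sequenced in pairs. The authors deposited whole-number read counts per gene symbol without normalisation. The submitters' processing notes name DESeq. No source used here gives the aligner, build, annotation or strand setting. Reads carry no molecular identifiers. Totals ran from 17670420 to 22395169, and 4 rows without a name were left out (0.0034% to 0.00492% of counts). No pair of replicates agreed within sampling noise (chi-square per degree of freedom 23.1 to 98.1).

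Counts were analysed in R 4.3.3 with edgeR 4.0.16: filterByExpr (minimum count 10, total 15), TMM factors, the robust quasi-likelihood F test and Benjamini-Hochberg adjustment over 14164 genes, at a threshold of 0.05. Each SE was taken as log2 fold change over the square root of F. The steps were tested on simulated data for this comparison, with 13753 genes. Changes were placed only in genes above a floor of mean CPM, so the shares found do not cover scarce members. Of genes changed by 1 on the log2 scale edgeR found 54%, and of those changed by 2 it found 90%. False were 9.24% of the calls of edgeR, 25.2% of those of DESeq2 and 4.55% of those of limma-voom. The false shares of edgeR and DESeq2 lie above the threshold of 0.05. Other settings tried were DESeq2 1.42.0, limma-voom (limma 3.58.1), RLE factors, upper quartile factors, the non-robust test, other filters, each library left out, replicate blocks and a threshold of 0.01. Per-library values were to be given for each called member and for further members of known role, and up to 4 genes with the smallest p were named per other list. Further members are named to account for the list. The members and lists were chosen with earlier results of these data known. Of the 44 members, 2 are not reported here, and member counts leave them out.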

Additional observations from a re-analysis of the deposited data

How the results depend on the processing

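The 6 calls among the 37 tested members kept their direction in all 14 alternative fits. All 6 stayed called with RLE or upper quartile factors, DESeq2, limma-voom, the non-robust test, no filter, a CPM filter and without reporter-null replicate 2. With 1 library left out, 1 to 10 members and 341 to 2035 of all genes were called. Fits without a Treg library rest on 1 Treg library that is assumed to vary like the other group. A threshold of 0.01 left 2 members and 489 genes. DESeq2 called 10 members and 2323 genes, against 6 and 1245 with edgeR. Where Bcl2a1 rows were summed, an alternative chosen after seeing the data, 5 members were called.

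The titles number replicates 1 to 3, and the descriptions number the libraries differently. No label says that a number marks a shared animal. Reporter-null replicate 3 shares its title number with no Treg library, and reporter-null replicate 1 its description numbers with none. A library so left alone adds nothing to the group comparison of that block fit. With a replicate block on the title numbers, edgeR called 0 members (10 at an unadjusted p under 0.05) and 24 genes. With a replicate block on the description numbers it called 7 members and 1399 genes, and 5 of the 6 calls were kept, Casp6 being lost and Bcl2a1a and Casp1 gained. Deviations from the group means correlated at -0.51 and -0.60 for libraries sharing a title number and at 0.60 and 0.48 for those sharing a description number. Reporter-null replicate 1 and Treg replicate 2, which share neither number, correlated at 0.51. That is above the 0.48 of reporter-null replicate 3 and Treg replicate 2, which share a description number. With 2 Treg libraries these values are mirror images, so they do not tell whether a number marks a shared animal. Over members and alternatives 482 results stayed on their side of the threshold, 22 lost a call, and 13 gained one. The cause of these moves was not tested. Scarce members had wide errors, with SEs of 0.495 for Bak1, 0.775 for Bcl2l2 and 0.894 for Bcl2a1c.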
